A study of Mus musculus with 19 samples.

Results

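Transcripts of 7 genes were followed in the mouse brain: Ewsr1 and Taf15, which code for RNA-binding proteins of the FET family, Nono, Sfpq and Pspc1, which code for the DBHS proteins of the paraspeckle, and the nuclear long noncoding RNAs Neat1 and Malat1. They are 7 of the 24394 gene symbols used from the deposited tables and were named as a list, and all 7 passed the filter on low values, as did 16596 genes in all. The members were chosen from measured values of these data, with the comparisons of KO sham with WT sham mice and of WT MEST with WT sham mice in view, so those comparisons are described here without a test. The members were tested in KO MEST over WT MEST, which shares the 5 WT MEST libraries with the latter of these, and in KO MEST over KO sham, which shares the 4 KO sham libraries with the former. A gene chosen for a low level in the shared libraries tends to come out higher in KO MEST, so the p-values of the members are not independent of the choice.

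The libraries came from 19 male mice of the C57BL/6NJ background, 1 library per mouse, each made from the hippocampus and cortex of 1 hemisphere, dissected together at ZT20, in the dark phase. There were 5 wild-type sham (WT sham), 4 Fabp7 knockout sham (KO sham), 5 wild-type electroshock (WT MEST) and 5 Fabp7 knockout electroshock (KO MEST) mice. The MEST mice received an electroshock through ear clips once a day, from 20 mA in steps of 2 mA, up to tonic extension of the hind limbs (the maximal electroshock seizure threshold), and the sham mice were handled without a shock. Fabp7 is a fatty acid-binding protein of astrocytes, and no label or method limits its knockout to a cell type. Age went with the group: 15.9 to 16.3 weeks in WT sham, 17.3 to 17.9 in KO sham, 17.4 to 18.0 in WT MEST and 18.9 to 19.4 in KO MEST mice, so that age and group cannot be told apart, other than between KO sham and WT MEST mice, whose ages overlapped.

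FET proteins bind nascent RNA and RNA polymerase II, shuttle through the nucleus and take part in transcription and splicing. Paraspeckles are nuclear bodies built on the long isoform of Neat1, on which the DBHS proteins Sfpq and Nono assemble together with Pspc1 and many other RNA-binding proteins, FET proteins among them. Malat1 is transcribed from the neighbouring locus and is retained in nuclear speckles, the compartment of splicing factors. In the adult brain Malat1 is abundant in neurons, while Neat1 is known to respond to cell stress.

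Reads in genes ranged from 27.6 to 51.7 M per library (medians of 29.9 M in WT sham, 39.5 M in KO sham, 32.6 M in WT MEST and 37.0 M in KO MEST). Fabp7, the deleted gene, lay between 10.1 and 17.9 reads per 1000000 reads in genes (CPM) in the WT libraries and between 0 and 0.198 CPM in the KO libraries. The 5 WT sham libraries stood apart from the other 14 on the first principal component of all genes tested, which held 16.6% of the variance, with scores of -31.0 to -20.5 against 1.5 to 14.2. Both comparisons with WT sham rest on those libraries, and the tested comparisons use them only for the common estimate of the spread. Neuron markers were present throughout, with a summed level of 10837 to 12033 CPM for 12 genes, and none of the 12 was at 0. In bulk tissue, fewer cells of a type and less RNA per cell cannot be told apart.

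The RNAs were selected by oligo-dT, and the 3′ ends of both noncoding RNAs bear on what such libraries hold. Genes are given on GRCm38 with GENCODE vM21, on the minus strand for both RNAs: Neat1 (ENSMUSG00000092274.3, lincRNA) at chr19:5824708-5845478 and Malat1 (ENSMUSG00000092341.3, lincRNA) at chr19:5795690-5802672, with 22035 bases between them. Neat1 has an annotated long transcript of 20771 bases and a short one of 3004 bases. Short Neat1 RNA is known to begin at the same start as the long one and to end in a poly(A) tail. The long Neat1 transcript and Malat1 are known to be cut by RNase P in front of a tRNA-like small RNA and to end in a triple helix formed by U-rich motifs and an A-rich tract, in place of a poly(A) tail. The last 120 bases of both Neat1 transcripts are shown with the stretch of Malat1 that ends with the same A-rich tract. In the first and second sequence, capitals mark the stretches of 16 and 11 bases that Neat1 and Malat1 share, and in the last sequence they mark the poly(A) signal AATAAA.
Neat1-201, long transcript: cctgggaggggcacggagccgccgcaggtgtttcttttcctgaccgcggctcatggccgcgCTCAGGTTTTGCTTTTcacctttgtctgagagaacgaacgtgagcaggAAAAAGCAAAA
Malat1-201: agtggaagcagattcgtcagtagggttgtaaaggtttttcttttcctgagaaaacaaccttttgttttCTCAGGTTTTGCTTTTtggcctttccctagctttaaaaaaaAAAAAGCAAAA
Neat1-202, short transcript: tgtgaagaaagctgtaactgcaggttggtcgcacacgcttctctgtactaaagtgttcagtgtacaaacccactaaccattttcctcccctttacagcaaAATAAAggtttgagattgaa
The A-rich tract is the very end of the annotated long Neat1 transcript, and an annotated small RNA lies next to it, at chr19:5824652-5824707. In Malat1 it lies 292 bases before the annotated end and begins within a run of 12 A, whereas the longest run of A in the long Neat1 transcript is 7. AATAAA occurs in the last 50 bases of Neat1-202 and of the annotated Malat1-201 and not in those of Neat1-201. The counts are per gene, so the isoforms of Neat1 were not separated.

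Ewsr1 (ENSMUSG00000009079.16, chr11:5069689-5099266, minus strand) codes for a FET protein known as a partner in the gene fusions of Ewing sarcoma, and its transcript separated the MEST genotypes. In the WT sham libraries Ewsr1 was at 237, 249, 224, 224 and 229.9 CPM, in KO sham at 172, 180.3, 173 and 176 CPM, in WT MEST at 161, 158, 146, 152 and 184 CPM and in KO MEST at 208, 214, 209, 187 and 210.1 CPM. All KO MEST libraries were above all WT MEST libraries and all KO sham libraries, and all of them were below the WT sham libraries. The order of the group means was WT sham (233 ± 10.5 CPM, SD, n = 5), KO MEST (206 ± 10.4, n = 5), KO sham (175 ± 3.72, n = 4) and WT MEST (160.2 ± 14.3, n = 5), and only KO sham and WT MEST overlapped among neighbours.

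Ewsr1 rose in KO MEST over WT MEST by 0.36 on the log2 scale (SE 0.06, 95% interval 0.25 to 0.48), with an adjusted p of 0.000374 in limma, and was higher in 5 of 5 KO MEST libraries than the WT MEST mean. It rose in KO MEST over KO sham by 0.23 (SE 0.06, adjusted p = 0.0301 in limma). The latter call was lost when only those groups were fitted (adjusted p = 0.0547), and without any 1 of 7 of the 9 libraries compared. In the comparisons that chose the list, Ewsr1 differed by -0.41 (SE 0.06) in KO sham from WT sham and by -0.54 (SE 0.06) in WT MEST from WT sham. Its exons overlap those of Rhbdd3 on the other strand over 258 bases, and 14.9% of its 100-base windows occur also in Rhbdd3, Gm6627 or Gm7962. Rhbdd3 itself was at 8.57 to 13.7 CPM in all libraries.

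Taf15 (ENSMUSG00000020680.15, chr11:83473086-83506743, plus strand), a FET protein that associates with the general transcription factor TFIID, had the same order of group means as Ewsr1. Taf15 was at 60.0, 63.9, 65.0, 52.8 and 61.8 CPM in WT sham, at 44.8, 52.4, 42.0 and 42.8 CPM in KO sham, at 42.9, 38.5, 39.7, 44.9 and 42.9 CPM in WT MEST and at 51.3, 61.1, 58.8, 50.1 and 58.2 CPM in KO MEST. Every KO MEST library lay above every WT MEST library, and KO MEST overlapped with KO sham through KO sham replicate 3 alone. The means were 60.7 ± 4.82, 45.5 ± 4.73, 41.8 ± 2.62 and 55.9 ± 4.88 CPM in the same order of groups. Neighbours in the order of means (WT sham, KO MEST, KO sham, WT MEST) all overlapped.

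Taf15 rose by 0.42 (SE 0.07, 95% interval 0.27 to 0.56, adjusted p = 0.00121 in limma) in KO MEST over WT MEST and by 0.30 (SE 0.08, adjusted p = 0.0314 in limma) over KO sham. When only the KO groups were fitted the latter adjusted p was 0.0842, and it was at most 0.0958 when a library was left out. Taf15 differed by -0.42 in KO sham from WT sham and by -0.54 in WT MEST from WT sham. None of its 100-base windows occurs in another gene.

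**Figure D1:**
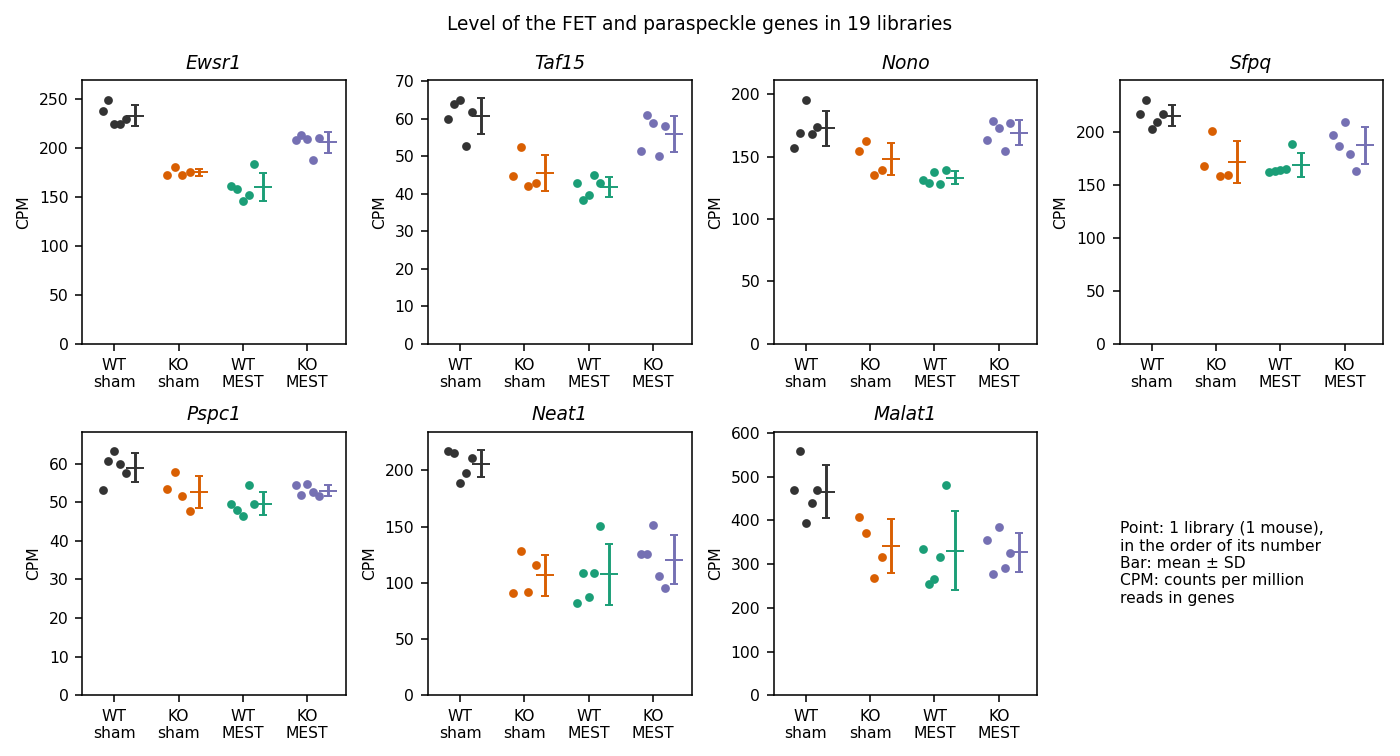
Level of each gene in CPM (vertical axes, from 0) in every library of the 4 groups; a point is 1 library and a bar is the mean ± SD. Ewsr1, Taf15 and Nono are higher in KO MEST than in WT MEST without overlap, whereas Neat1 is at 189 to 217 CPM in WT sham and at 82.5 to 151 CPM in the other 3 groups.

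Nono (ENSMUSG00000031311.17, chrX:101429318-101448591, plus strand), the DBHS protein that forms dimers with Sfpq and is needed for paraspeckles, was at 157, 169, 195, 168 and 173 CPM in WT sham and at 155, 163, 135 and 139 CPM in KO sham. In WT MEST Nono was at 131, 129, 137, 128 and 139 CPM and in KO MEST at 164, 178, 173, 154 and 177 CPM. The MEST groups did not overlap, and the KO MEST values lay within the WT sham range except for 154 CPM in replicate 4. Nono rose by 0.35 (SE 0.06, 95% interval 0.22 to 0.47, adjusted p = 0.0013 in limma) in KO MEST over WT MEST. Against KO sham the difference was 0.20 (SE 0.06, 95% interval 0.06 to 0.33) with an adjusted p of 0.0936 in limma, which did not pass. It passed with DESeq2 on the recovered reads (adjusted p = 0.0378), without KO sham replicate 3 (0.0357) and without KO MEST replicate 4 (0.0488). Nono differed by -0.22 in KO sham and by -0.37 in WT MEST from WT sham. Of its 100-base windows 8.50% occur also in Gm5171 or Gm8806.

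Sfpq (ENSMUSG00000028820.13, chr4:127021324-127037013, plus strand), a splicing factor and DBHS protein that holds Neat1 in the paraspeckle core, separated the genotypes less. Sfpq ranged from 203 to 231 CPM in WT sham, from 159 to 202 in KO sham, from 162 to 189 in WT MEST and from 164 to 209.6 in KO MEST. In WT MEST, 4 libraries lay within 162 to 165 CPM and replicate 5 at 189 CPM. The difference between KO MEST and WT MEST was 0.15 (SE 0.07, 95% interval 0.01 to 0.29, adjusted p = 0.174 in limma), and without WT MEST replicate 5 it was 0.19 with an adjusted p of 0.0957. Between KO MEST and KO sham it was 0.13 (95% interval -0.02 to 0.27, adjusted p = 0.386 in limma). Sfpq differed by -0.33 in KO sham and by -0.35 in WT MEST from WT sham, in both without overlap of libraries. The transcript Gm12940 shares 216 exonic bases with Sfpq on the same strand.

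Pspc1 (ENSMUSG00000021938.12, chr14:56720710-56778316, minus strand), the DBHS protein by which paraspeckles were first recognised, varied least in CPM among the 7. Pspc1 was at 53.1 to 63.2 CPM in WT sham, 47.7 to 57.7 in KO sham, 46.4 to 54.4 in WT MEST and 51.6 to 54.6 in KO MEST. KO MEST exceeded WT MEST by 0.10 (95% interval -0.02 to 0.22, adjusted p = 0.320 in limma) and KO sham by 0.01 (95% interval -0.11 to 0.14, adjusted p = 0.948 in limma). The intervals leave room for changes of up to 0.22 and 0.14 on the log2 scale. Pspc1 differed by -0.16 in KO sham and by -0.25 in WT MEST from WT sham, with overlapping libraries.

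Neat1, the scaffold of the paraspeckle, was high in WT sham mice alone. Neat1 was at 217, 216, 189, 198 and 211 CPM in WT sham, at 90.7, 128, 91.7 and 116 CPM in KO sham, at 82.5, 109, 87.2, 109 and 150.4 CPM in WT MEST and at 126, 125, 151, 106 and 95.6 CPM in KO MEST. The WT sham libraries were all above the libraries of the other 3 groups, which overlapped each other. The means were 206 ± 12.3 CPM in WT sham (n = 5), 107 ± 18.5 in KO sham (n = 4), 107 ± 26.8 in WT MEST (n = 5) and 121 ± 21.4 in KO MEST (n = 5). The level in KO sham was 51.8% and that in WT MEST 52.2% of WT sham, log2 differences of -0.96 (SE 0.16) and -0.97 (SE 0.15), which belong to the comparisons that chose the list.

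In the tested comparisons Neat1 differed by 0.18 (SE 0.15, 95% interval -0.14 to 0.51, adjusted p = 0.508 in limma) between KO MEST and WT MEST and by 0.18 (SE 0.16, 95% interval -0.16 to 0.52, adjusted p = 0.639 in limma) between KO MEST and KO sham. A rise as large as that of Ewsr1 lies inside the former interval. Replicate 5 held the highest Neat1 value of the WT MEST group, and without it the difference between the MEST genotypes was 0.31 with an adjusted p of 0.157. In both KO groups replicate 3 held the highest Neat1 value (128 and 151 CPM). The coefficient of variation of Neat1 was 5.97% in WT sham and 17.4% to 25.0% in the other groups.

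Malat1 was at 469, 558, 393, 439.6 and 470.3 CPM in WT sham, at 408, 371, 267 and 316 CPM in KO sham, at 335, 254, 267, 316 and 482 CPM in WT MEST and at 355, 279, 386, 292 and 325 CPM in KO MEST. The groups overlapped except for WT sham and KO MEST, and WT MEST replicate 5, at 482 CPM, lay inside the WT sham range. The means were 466 ± 60.3, 341 ± 61.6, 331 ± 91.0 and 327 ± 44.2 CPM in the same order of groups. Malat1 differed by 0.01 (95% interval -0.33 to 0.36, adjusted p = 0.977 in limma) between KO MEST and WT MEST and by -0.05 (95% interval -0.41 to 0.32, adjusted p = 0.931 in limma) between KO MEST and KO sham. Without WT MEST replicate 5 the former difference was 0.16 (adjusted p = 0.519). Malat1 differed by -0.46 in KO sham and by -0.52 in WT MEST from WT sham. Of its 100-base windows 5.22% occur in other genes, and Gm37376 overlaps it on the opposite strand over 453 bases.

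Of the 7 members, 3 were called higher in KO MEST than in WT MEST (Ewsr1, Taf15 and Nono) and 0 lower in limma, where 4.51% of the 16596 genes tested were called higher and 4.07% lower. The same 3 did not overlap between these groups, a pattern that 4.22% of genes showed in that direction. In KO MEST over KO sham, 2 of 7 were called higher (Ewsr1 and Taf15) and 0 lower, against 1.44% and 1.63% of all genes, and only Ewsr1 did not overlap, as did 3.15% of genes. None of the 7 had an unadjusted p under 0.05 in the lower direction or was called lower by edgeR or DESeq2 in either comparison. These counts, too, draw on libraries in view when the list was made, and nothing is read from their excess over all genes. The median log2 difference of the 7 members was 0.18 in both comparisons, against -0.01 for all genes. In KO sham, 4 of 7 members lay below WT sham without overlap, as 7.01% of all genes did, and in WT MEST 5 of 7 did, as 7.71% of all genes did; these counts belong to the comparisons from which the list was made. The medians of the members were -0.41 and -0.52 there, against -0.01 and 0.00 for all genes.

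**Figure D2:**
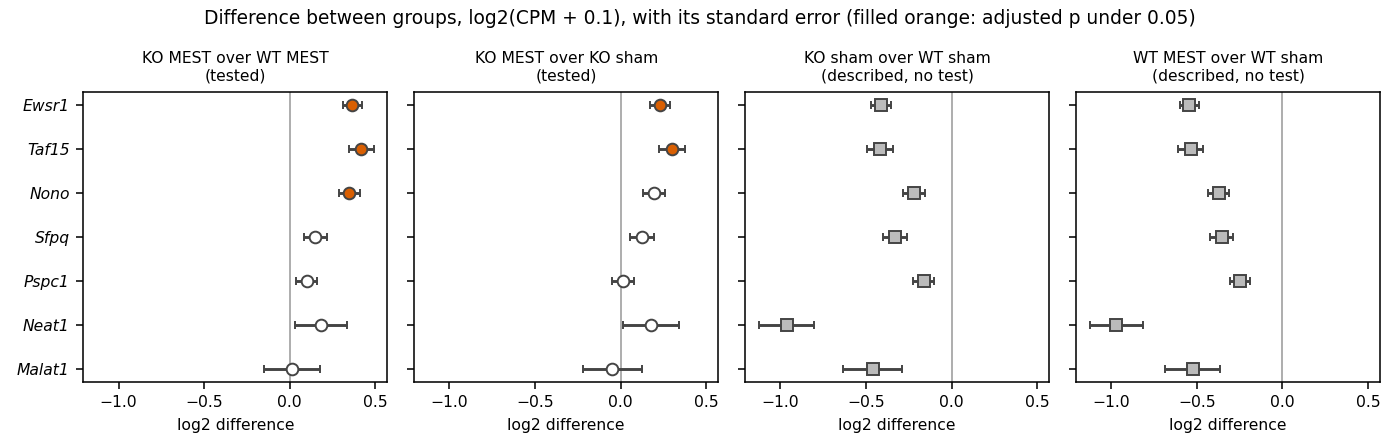
Log2 difference of each gene (horizontal axes, log2(CPM + 0.1) with its standard error as bars) in the 4 comparisons; filled circles passed an adjusted p of 0.05, open circles did not, and squares were not tested. Values in KO MEST over WT MEST run from 0.01 for Malat1 to 0.42 for Taf15, and those of Neat1 against WT sham are -0.96 and -0.97.

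The KO sham and WT MEST groups, of like age, overlapped in the level of all 7 members. For Ewsr1 the overlap rested on WT MEST replicate 5 (184 CPM, against 172 to 180.3 CPM in KO sham). The KO sham mean was the higher for all members but Neat1, with 148 against 133 CPM for Nono. These groups were not tested against each other. The share of all genes that overlap between them was not computed, so nothing is read from this count. The comparison of KO sham with WT sham and that of WT MEST with WT sham share the WT sham libraries, and KO MEST over KO sham and WT MEST over WT sham share none. Electroshock went with a lower level of Ewsr1 in WT mice (-0.54) and a higher one in KO mice (0.23). For Taf15 the values were -0.54 and 0.30, for Nono -0.37 and 0.20, for Sfpq -0.35 and 0.13, for Pspc1 -0.25 and 0.01, for Neat1 -0.97 and 0.18 and for Malat1 -0.52 and -0.05. The difference between the genotypes was not tested for the members, since its WT part was among the values that chose the list.

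Other measures moved with the groups. The 12 genes of neuronal activity, among them Fos, Arc and Npas4, summed to 1029 to 2025 CPM in WT sham, 765 to 1382 in KO sham, 364 to 647 in WT MEST and 537 to 1326 in KO MEST, and 11 of 12 were called lower in WT MEST than in WT sham. Their part in the levels of the members was not tested. Between the MEST genotypes 0 of 12 activity genes were called in limma, 3 were higher and 1 lower at an unadjusted p under 0.05, and edgeR called 1 and DESeq2 2 of them higher. Of 10 oligodendrocyte markers 9 are reported here, and of these 2 were called lower in KO MEST than in WT MEST (Mog and Cnp), with sums over the 9 of 3949 to 4448 CPM against 3683 to 5448 CPM, and of 12 neuron markers 2 were called higher (Slc17a7 and Rbfox3) and 1 lower (Gad1). The sums of the 10 astrocyte markers (5230 to 5742 CPM in KO MEST, 5603 to 5907 in WT MEST) and of the 10 microglia markers (402 to 453 and 413 to 466 CPM) overlapped between those groups. The 8 regional markers of hippocampus and cortex summed to 521 to 627 CPM in KO MEST. They summed to 478 to 544 CPM in WT MEST and 437 to 498 CPM in KO sham. Of these, only Wfs1 was called, higher in both KO MEST comparisons. All 6 choroid plexus markers had negative differences in both (medians -0.31 and -0.38), and 0 were called. Among neuron markers, Slc17a7 was called higher and Pvalb lower in KO MEST over KO sham. The part of these cell types, or of the dissection, in the result was not tested. With the trend of the log2 differences on exonic length removed, the difference between the MEST genotypes was 0.37 for Ewsr1, 0.40 for Taf15 and 0.34 for Nono.

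Levels between genes were set side by side per kilobase of annotated exons. In WT sham libraries Malat1 was at 66.7 ± 8.64 CPM per kb, Sfpq at 45.5 ± 2.14, Nono at 39.4 ± 3.25, Ewsr1 at 39.4 ± 1.78, Taf15 at 20.8 ± 1.65, Pspc1 at 10.3 ± 0.66 and Neat1 at 9.91 ± 0.59 (SD, n = 5). On these lengths Ewsr1 and Nono did not differ beyond their spread, nor did Pspc1 and Neat1. The lengths join the exons of all annotated transcripts of a gene (13 transcripts for Ewsr1, 7 for Nono). A gene expressed as shorter transcripts would lie higher, so the order of the genes depends on the length used. The place of Neat1 depends on the isoform: if all reads came from the 3004 bases of the short transcript, the WT sham level would be 68.5 CPM per kb, and 35.5 to 40.2 in the other groups.

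Ratios within a library do not depend on how the library was scaled. Neat1 per 100 counts of the 5 protein-coding members was 27.8 ± 1.76 in WT sham, 17.9 ± 2.49 in KO sham, 19.3 ± 3.84 in WT MEST and 17.9 ± 2.54 in KO MEST. All WT sham libraries (25.1 to 29.9) lay above all others (14.5 to 24.9), a description that rests on the comparisons used for choosing the list. The ratio of Neat1 to Malat1 was 0.445 ± 0.0353 in WT sham, 0.319 ± 0.0653 in KO sham, 0.331 ± 0.0651 in WT MEST and 0.370 ± 0.0566 in KO MEST.

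Shares were also taken among the listed FET members and among the DBHS members. Group means ran from 78.6% to 79.4% for Ewsr1 and from 37.8% to 41.3% for Nono. Nono made up 38.5% ± 2.30 of the sum of Nono, Sfpq and Pspc1 in WT sham, 39.7% ± 1.12 in KO sham, 37.8% ± 1.10 in WT MEST and 41.3% ± 2.53 in KO MEST. Ewsr1 made up 79.3% ± 1.26, 79.4% ± 1.38, 79.3% ± 1.53 and 78.6% ± 0.97 of the sum of Ewsr1 and Taf15 in the same order. In an exact two-sided permutation test of KO MEST against WT MEST over 5 ratios, the share of Nono was 3.49 percentage points higher (p = 0.0159, adjusted p = 0.0794), that of Sfpq differed by -2.31 points (p = 0.0952, adjusted p = 0.159) and that of Pspc1 differed by -1.18 points (p = 0.0476, adjusted p = 0.119). In the same exact test the ratio of Neat1 to Malat1 differed by 0.0391 (p = 0.333, adjusted p = 0.417) and the share of Ewsr1 by -0.61 points (p = 0.476, adjusted p = 0.476). None of the 5 ratios passed after adjustment in this exact test, and 2 of 5 had an unadjusted p under 0.05. The smallest p that this exact test can give is 0.00794 for 5 libraries against 5. These p-values, too, draw on the WT MEST libraries in view when the list was made.

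The Ewsr1 and Taf15 sum per 100 counts of the 3 DBHS members, computed after the other values were seen and not tested, was 65.7 ± 3.03 in WT sham, 59.5 ± 3.70 in KO sham, 57.4 ± 2.59 in WT MEST and 63.9 ± 3.08 in KO MEST. All KO MEST libraries (61.4 to 68.4) lay above all WT MEST libraries (53.4 to 59.9).

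**Figure D3:**
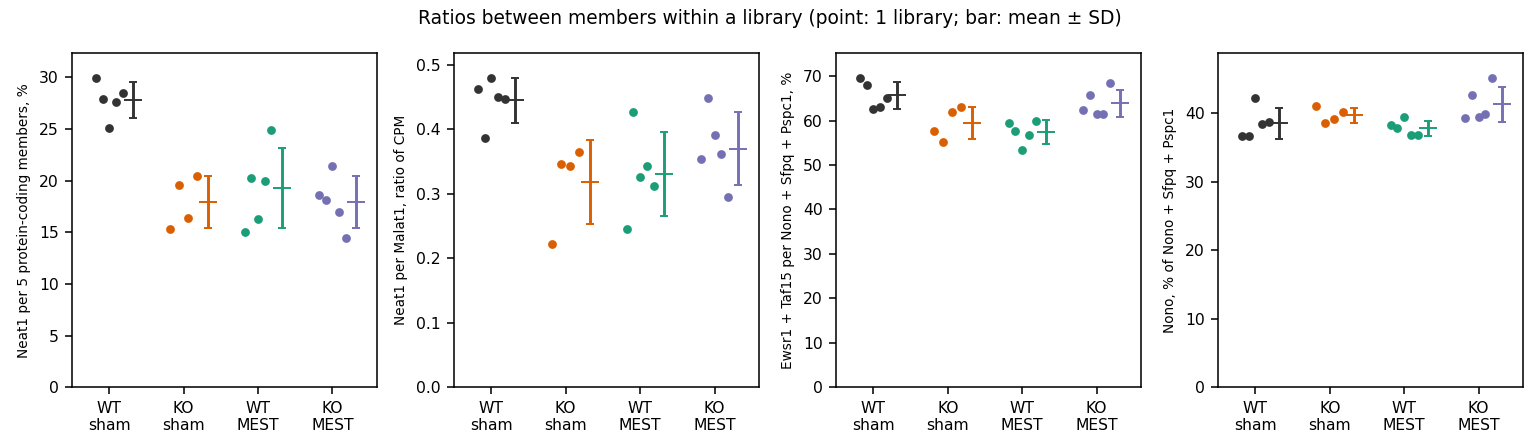
Ratios of CPM between members within each library (vertical axes, in percent or as a ratio, from 0) by group; a point is 1 library and a bar is the mean ± SD. Neat1 per protein-coding members is 25.1 to 29.9% in WT sham and 14.5 to 24.9% elsewhere, and the ratio of FET to DBHS transcripts does not overlap between the MEST groups.

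The promoters of the 3 genes called higher in KO MEST over WT MEST are shown because these genes moved together, from 250 bases before to 50 after the start, credited to RefSeq on GRCm38.p6. Capitals mark the motifs CCAAT and GGGCGG on either strand (ATTGG and CCGCCC when on the reverse strand).
Ewsr1, chr11:5099047-5099346, minus strand: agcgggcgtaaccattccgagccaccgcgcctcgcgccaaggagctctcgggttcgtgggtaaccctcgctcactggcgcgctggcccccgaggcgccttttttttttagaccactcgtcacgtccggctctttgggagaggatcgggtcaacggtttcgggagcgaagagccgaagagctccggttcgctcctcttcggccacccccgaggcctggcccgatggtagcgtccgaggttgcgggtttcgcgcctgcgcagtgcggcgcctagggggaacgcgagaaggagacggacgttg
Taf15, chr11:83472858-83473157, plus strand: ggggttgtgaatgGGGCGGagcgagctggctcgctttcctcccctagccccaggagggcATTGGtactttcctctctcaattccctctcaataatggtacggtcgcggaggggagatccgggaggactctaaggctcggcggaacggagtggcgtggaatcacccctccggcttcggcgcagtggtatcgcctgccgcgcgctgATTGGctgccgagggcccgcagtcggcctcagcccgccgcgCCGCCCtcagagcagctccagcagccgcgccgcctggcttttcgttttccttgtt
Nono, chrX:101429401-101429700, plus strand: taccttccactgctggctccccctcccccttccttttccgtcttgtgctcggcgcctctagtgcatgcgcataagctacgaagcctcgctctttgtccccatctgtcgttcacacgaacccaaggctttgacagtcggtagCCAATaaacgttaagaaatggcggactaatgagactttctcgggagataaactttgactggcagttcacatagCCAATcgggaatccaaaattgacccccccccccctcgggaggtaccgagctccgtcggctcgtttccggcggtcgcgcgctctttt
RefSeq windows matched 6 of the 7 members, all but Neat1. CCAAT occurred 2 times in Taf15, 2 times in Nono, 4 times in Sfpq, where a pair of them overlap as CCAATTGG, and 1 time in Pspc1, and not in Ewsr1 or Malat1, while 37.4% of the 32851 windows of all promoters hold it. GGGCGG occurred 2 times in Taf15 and 1 time in Pspc1, and 35.7% of all windows hold it. TATAAA, TGACGTCA (the CRE), TGANTCA (the AP-1 motif), GAANNTTC and CACGTG were searched on both strands and occurred in 0 of the 6 windows. The GC content was 66.3% in Ewsr1, 65.7% in Taf15, 55.7% in Nono, 48.0% in Sfpq, 57.0% in Pspc1 and 47.0% in Malat1, against a median of 52.7% over all windows. No motif was present in Ewsr1, Taf15 and Nono together.

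Other proteins of the paraspeckle, 35 genes, included 6 that rose and 1 that fell in KO MEST over WT MEST, where 4.51% and 4.07% of all genes did; with a library left out 2 to 9 rose. Hnrnpul1, an RNA-binding protein related to the hnRNP U family, rose from 93.3 ± 5.09 to 112 ± 3.65 CPM (log2 difference 0.26, adjusted p = 0.00251 in limma), and Ubap2l, a protein of RNA granules, rose from 116 ± 3.49 to 141 ± 6.89 CPM (0.28, adjusted p = 0.00202 in limma). Nudt21, a subunit of the cleavage factor that directs polyadenylation and the choice between Neat1 isoforms, fell from 24.9 ± 1.39 to 20.5 ± 0.86 CPM (-0.28, adjusted p = 0.00766 in limma). Ubap2l (0.23, adjusted p = 0.0183) and Hnrnpul1 (0.22, adjusted p = 0.0274) were also the only 2 that rose in KO MEST over KO sham in limma, with 0 lower (1 at an unadjusted p under 0.05, 0 in edgeR and DESeq2). Both calls were lost when only those groups were fitted, that of Ubap2l also with the trend on exonic length removed, and on leaving out 1 of 2 libraries for Ubap2l and 1 of 5 for Hnrnpul1 (adjusted p of up to 0.0645 and 0.0749). The median of the 35 was 0.07 and 0.09, against -0.01 for all genes in both.

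Against WT sham, 13 of the 35 fell and 1 rose in KO sham, and 16 fell and 0 rose in WT MEST in limma (2 rose at an unadjusted p under 0.05, 1 in edgeR and 2 in DESeq2), while 8.17% of all genes were called lower and 9.99% higher in the former and 11.6% and 11.4% in the latter. Hnrnpa1, a splicing repressor, had the smallest p in both: it fell from 11.2 ± 0.61 CPM in WT sham to 6.23 ± 1.27 in KO sham (-0.85, adjusted p = 4.22e-05 in limma) and 5.73 ± 0.85 in WT MEST (-0.96, adjusted p = 3.09e-06 in limma). Processed copies of Hnrnpa1 are known in the mouse genome and could take some of its reads, so its level is uncertain. Ubap2l fell from 154 ± 10.1 CPM to 119.9 ± 6.26 and 116 ± 3.49 CPM. Celf6, an RNA-binding protein of neurons, rose in KO sham from 18.8 ± 0.60 to 23.0 ± 1.43 CPM (0.29, adjusted p = 0.0105 in limma). The 2 comparisons share the WT sham libraries. This list and those that follow were chosen with earlier results of these data known. The p-values and counts of the lists are therefore not independent of that choice. Nothing is read from their excess over all genes.

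Nuclear speckle proteins, 24 genes of the compartment in which Malat1 lies, had 10 genes that rose and 0 that fell in KO MEST over WT MEST in limma, with a median of 0.19 against -0.01 for all genes, 4.51% of which rose. Without KO MEST replicate 2 the count was 6. Sart1, a component of the U4/U6.U5 tri-snRNP, rose from 48.9 ± 3.39 to 62.2 ± 3.25 CPM (0.35, adjusted p = 0.000988 in limma), and Acin1, a protein of the exon junction complex, rose from 98.1 ± 6.67 to 123 ± 8.91 CPM (0.33, adjusted p = 0.00109 in limma). In KO MEST over KO sham, where 1.44% of all genes rose, 2 rose, Acin1 (0.29, adjusted p = 0.0083) and Rnps1 (0.21, adjusted p = 0.0398), a splicing activator whose call was lost without any 1 of 7 libraries (up to 0.129), and 0 fell. In both comparisons 0 were lower at an unadjusted p under 0.05 or in edgeR or DESeq2. Against WT sham 16 of 24 fell and 1 rose in KO sham, and 19 fell and 1 rose in WT MEST, beside 8.17% and 11.6% of all genes that fell. Srrm1, an SR-related splicing coactivator, fell from 149 ± 9.55 CPM to 104 ± 9.39 in KO sham (-0.53) and 93.7 ± 8.04 in WT MEST (-0.67), and Rbm25, which acts in splice site choice, fell from 175 ± 5.84 to 122 ± 11.4 (-0.53) and 115 ± 13.8 CPM (-0.62). Srsf2, an SR protein, was the 1 that rose, by 0.27 and 0.30.

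Proteins that import FET proteins into the nucleus or methylate their arginines made a list of 6 genes. In KO MEST over WT MEST 0 rose and 1 fell in limma, beside 4.51% and 4.07% of all genes. In KO sham 1 rose and 0 fell against WT sham, beside 9.99% and 8.17% of all genes. In WT MEST 1 rose and 1 fell against WT sham, beside 11.4% and 11.6% of all genes. Tnpo2, a transportin, fell from 178 ± 4.90 to 157 ± 10.1 CPM in KO MEST over WT MEST (-0.18, adjusted p = 0.0425 in limma), a call that ended with TMM factors, with edgeR and without any 1 of 9 libraries (adjusted p of up to 0.13). None of the 6 was called in KO MEST over KO sham in limma, edgeR or DESeq2, and 0 had an unadjusted p under 0.05. There 1.44% of all genes rose and 1.63% fell in limma. Prmt1, the main arginine methyltransferase, rose from 44.4 ± 2.01 CPM in WT sham to 59.8 ± 3.08 in KO sham (0.43, adjusted p = 4.34e-05 in limma) and 55.0 ± 5.23 in WT MEST (0.30, adjusted p = 0.000688 in limma), opposite in sign to Ewsr1 and Taf15. Prmt5, which makes symmetric dimethylarginine, fell in WT MEST from 69.8 ± 1.59 to 62.8 ± 3.61 CPM (-0.16, adjusted p = 0.0408 in limma), a call lost without any 1 of 7 libraries (up to 0.104).

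Among 15 other nuclear noncoding RNAs, 2 rose in KO MEST over WT MEST, where 4.51% of all genes did, and 0 fell in limma (1 fell at an unadjusted p under 0.05, 0 in edgeR and 1 in DESeq2). Meg3, an RNA of the imprinted Dlk1 and Dio3 locus, rose from 1174 ± 388 to 1756 ± 303 CPM (0.62, adjusted p = 0.0488 in limma), and Mirg, of the same locus, rose from 7.06 ± 1.40 to 13.2 ± 3.57 CPM (0.87, adjusted p = 0.0113 in limma). With a library left out 1 to 4 rose. The call of Meg3 was lost with edgeR and without any 1 of 14 libraries (adjusted p of up to 0.117). None was called in KO MEST over KO sham in limma, edgeR or DESeq2, and 4 were higher at an unadjusted p under 0.05. Against WT sham 4 fell and 0 rose in KO sham in limma (1 rose at an unadjusted p under 0.05, 0 in edgeR and 1 in DESeq2), and 4 fell and 1 rose in WT MEST. Meg3 fell from 2548 ± 479 CPM to 1216 ± 137 in KO sham (-1.06) and 1174 ± 388 in WT MEST (-1.15), and Firre, an X-linked RNA, fell from 58.0 ± 7.94 to 37.4 ± 3.10 (-0.62) and 38.5 ± 8.03 CPM (-0.60). Snhg14 rose in WT MEST from 10.0 ± 2.17 to 15.5 ± 2.83 CPM (0.64, adjusted p = 0.00215 in limma).

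**Figure D4:**
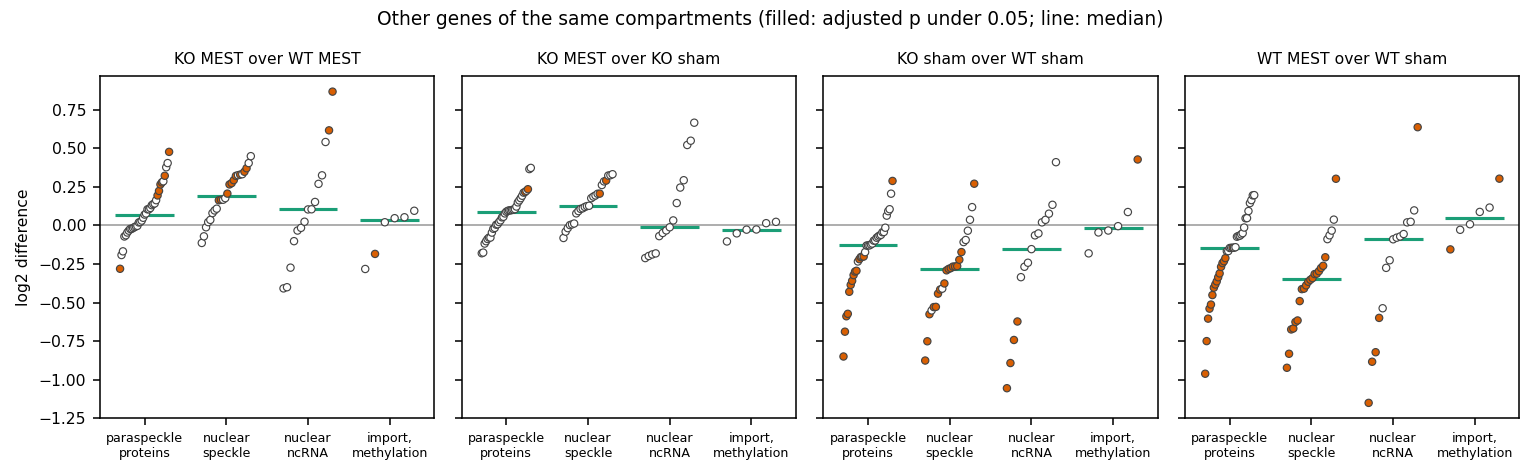
Log2 difference (vertical axis) of every gene of 4 lists in the 4 comparisons, each point a gene ordered by its value, filled where the adjusted p was under 0.05, with the median of each list as a line. For nuclear speckle proteins the medians are 0.19 and 0.13 in the KO MEST comparisons and -0.28 and -0.35 against WT sham.

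The genes whose levels over the 19 libraries lay nearest to those of each member were found by the root mean square (RMS) difference of log2 values centred on their own means, among genes of at least 10 CPM. Nearest to Ewsr1 were Eps15l1 (0.08), Prpf40b (0.09) and Pnn (0.09), the median over all genes compared being 0.26. Nearest to Taf15 were Tspyl2 (0.09), Prr14 (0.10) and Paf1 (0.10). Nearest to Nono were Drosha (0.05), Rbm17 (0.07) and U2af1 (0.07), Drosha going from 159 CPM in WT sham to 135 in KO sham, 125 in WT MEST and 162 in KO MEST. Nearest to Sfpq were Fubp1, Brd9 and Psmc6 (0.08 to 0.09), and nearest to Pspc1 were Tmem57, Nrd1 and Nub1 (0.06 to 0.07). Neat1 lay farther from its nearest genes, Pnisr, Luc7l3 and Srsf5 (each 0.18), of which Srsf5 went from 297 CPM in WT sham to 128 to 154 CPM elsewhere. The median of Neat1 over all genes compared was larger as well (0.48, against 0.18 for Pspc1). A gene that varies more lies farther from most others by this measure, so distances of different members are not on 1 scale. Nearest to Malat1 were Zfp950 (0.13), Ccdc39 (0.14) and Wsb1 (0.15).

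Among the members, Ewsr1 and Taf15 lay 0.10 apart, Sfpq and Pspc1 0.12, Nono and Taf15 0.11, and Nono and Sfpq 0.14. Neat1 lay 0.30 from Ewsr1, 0.31 from Sfpq, 0.33 from Taf15 and 0.39 from both Nono and Pspc1, and 0.29 from Malat1. Malat1 was nearer to Sfpq (0.21) than to Neat1.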

How the data were processed

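RNA of the hippocampus and cortex, dissected together from 19 mice, was sequenced as paired ends from poly-T selected, stranded libraries. The authors trimmed reads with Trimmomatic 0.39, aligned them to mm10 with HISAT2 2.2.1, counted them with featureCounts of Subread 2.0.3 and normalised the counts of each genotype on their own with DESeq2 1.36.0. How reads that map to several places were counted, and whether strand was used, is not given in the sources used here. The deposited values are a normalised signal, the read count divided by 1 size factor per library. Columns with the authors' fold changes and p-values were not used.

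All deposited values of each library were whole reads after division by its step (tolerance 0.01). Of 24421 symbols 27 had become dates and were left out (at most 0.384% of a library). Division by the library total gave CPM, from which the size factor drops out. Genes with at least 0.2 CPM in at least 4 libraries (16596) were fitted with limma 3.58.1 (trend, robust) in R 4.3.3 on log2(CPM + 0.1), in 1 model with 4 group means, and p-values were adjusted by Benjamini-Hochberg over all genes tested, with a threshold of 0.05. Differences are on that log2 scale. Ratios were compared by exact permutation. The fit was tested on simulated data. No 2 libraries of a group agreed within sampling noise (mean chi-square per gene of 5.73 or more over 36 pairs, where sampling alone gives 1). The highest values, 29.2 to 49.7, were those of KO sham replicate 3 with the other KO sham libraries. Each library is a separate mouse.

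The members and lists were chosen with earlier results of these data known. Named genes are the 7 members, up to 2 genes per list, comparison and direction with the smallest p among those called, and the 3 genes nearest each member. Alternatives were TMM and median-of-ratios factors, pseudocounts of 0.5 and 1, no filter, a filter at 1 CPM, edgeR 4.0.16 and DESeq2 1.42.0 on the recovered reads, a fit of the groups compared alone, a replicate block, removal of the trend on exonic length, and each library left out. Protein sequences were not analysed here. Of the 10 oligodendrocyte markers 1 is not reported here, and the count and sums given for that list leave it out. Python 3.11.15 was used with numpy 2.4.6, pandas 2.3.3 and scipy 1.17.1, and matplotlib 3.10.9.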

Additional observations from a re-analysis of the deposited data

Results flagged for a closer look

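In 28 sets of values, 1 for each member and group, a library far from the rest of its group was looked for with Dixon's test, which chance alone meets in about 1 of 20 sets, and 2 were found. Ewsr1 in KO MEST replicate 4 was at 187 CPM, against 208 to 214 CPM in the other KO MEST libraries. Sfpq in WT MEST replicate 5 was at 189 CPM, against 162 to 165 CPM in the other WT MEST libraries.

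For 3 members the change with electroshock had opposite signs in WT and KO mice in every library. Each WT MEST library lay below the WT sham mean, and each KO MEST library above the KO sham mean. The share of all genes with this pattern was not computed, so nothing is read from this count. The change in KO minus that in WT mice was 0.77 on the log2 scale for Ewsr1, 0.83 for Taf15 and 0.57 for Nono. This difference between the genotypes was not tested, since its WT part was among the values that chose the list. In KO MEST over KO sham, Nono did not pass (adjusted p = 0.0936 in limma).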

How the results depend on the processing

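For the members, 30 alternatives were run per comparison. In KO MEST over WT MEST all 210 values kept their direction where called and their side of the threshold, and in the described comparisons all 420 values moved by less than 1 SD between replicates. In KO MEST over KO sham 191 of 210 did. There, a fit of those groups alone gave 0.23 for Ewsr1 (adjusted p = 0.0547) and 0.30 for Taf15 (adjusted p = 0.0842), which no longer passed, and 123 genes higher and 96 lower. DESeq2 gave 628 higher and 422 lower and called Nono (0.21), and it gave 1135 genes higher in KO MEST over WT MEST. The cause was not tested.

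With a library left out, the KO MEST over KO sham difference was 0.22 to 0.26 for Ewsr1 (adjusted p of 0.0128 to 0.0804), 0.26 to 0.37 for Taf15 (0.00837 to 0.0958) and 0.15 to 0.24 for Nono (0.0357 to 0.238), with 97 to 359 genes higher and 82 to 333 lower. The calls of Ewsr1 and Taf15 were lost without KO sham replicate 2, 4 or 5 or KO MEST replicate 2, 3 or 5, and that of Ewsr1 also without KO MEST replicate 1. KO MEST over WT MEST had 364 to 990 genes higher and 371 to 1020 lower, beyond 1.5 times from the full count without WT MEST replicate 1, 4 or 5, KO MEST replicate 2, 3 or 5 or KO sham replicate 3. Without KO sham replicate 5 or KO MEST replicate 5, Ubap2l, Hnrnpul1 and Rnps1 lost their call in KO MEST over KO sham, as did Hnrnpul1 without KO sham replicate 3 or KO MEST replicate 1 or 2, and Rnps1 without KO sham replicate 2 or 4 or KO MEST replicate 1, 2 or 3. In KO MEST over WT MEST, Tnpo2 lost its call without any WT MEST library, KO MEST replicate 1, 2 or 3 or WT sham replicate 2, and Meg3 lost its call whichever library was left out, except for replicate 3 of both sham groups, WT sham replicate 2, WT MEST replicate 5 and KO MEST replicate 4. In WT MEST over WT sham, Prmt5 lost its call without WT sham replicate 2, 3, 4 or 5 or WT MEST replicate 1, 2 or 5. The count of other paraspeckle proteins that rose in KO MEST over WT MEST (2 to 9) moved by over 1.5 times without WT MEST replicate 1, 3 or 4 or KO MEST replicate 2, 3 or 5, and that of the noncoding RNAs (1 to 4) without the 14 libraries of Meg3 and WT MEST replicate 5. No ratio changed its call.

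Of 27 same-numbered pairs of libraries 1 correlated over 0.1 (median -0.01) in deviations from the group means. The 1 pair was KO sham replicate 3 with KO MEST replicate 3 (0.26). Only 3 of 19 libraries correlated best with their own number. Correlations over all genes cannot decide whether the mice were paired by number. With the replicate block, Nono passed in KO MEST over KO sham (0.21, adjusted p = 0.0479) and 683 genes were higher and 614 lower in KO MEST over WT MEST.

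Depth did not limit the members, with at least 1256 reads per gene and library. The limits are small groups, an age that went with the group, Neat1 isoforms that were not separated, and oligo-dT selection applied to Malat1 and the long Neat1 transcript, known to lack a poly(A) tail.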
